A study of Mus musculus with 45 samples.

Results

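Expression of 10 endoplasmic reticulum genes of the unfolded protein response, mostly chaperones, was followed in mouse hearts after inhaled cigarette smoke and after a high-fat diet. They were taken as every probe set of the array annotated with 1 of the symbols Hspa5, Hsp90b1, Calr, Pdia4, Pdia6, Manf, Creld2, Sdf2l1, Dnajb9 or Herpud1 and no other, which gave 17 probe sets for 10 genes, of 12394 genes on the array. The probe set with the highest mean stood for each gene, and all 10 genes lay above the filter on dim genes, among 9295 genes tested. Hearts of 45 male C57BL/6 mice were measured on 1 Affymetrix array each. The groups were mice of regular weight (RW, about 5% of calories from fat) after mainstream smoke (RW-MS, 8 mice), sidestream smoke (RW-SS, 7 mice) or filtered air (RW-SC, 8 mice), and diet-induced obese mice (DIO, 60% of calories from fat, from an age of 6 weeks) after mainstream smoke (DIO-MS, 6 mice), sidestream smoke (DIO-SS, 8 mice) or filtered air (DIO-SC, 8 mice). Mainstream smoke is what a smoker draws through the cigarette, and sidestream smoke comes off its burning end. All groups, air included, were held in nose-only exposure for 5 h a day in 8 sessions over 2 weeks, from an age of 15 weeks, and were killed on the following day. The growth protocol mentions LPS exposure, but titles and treatment protocol give smoke, and the titles were followed. Values are log2 expression, and differences are log2 changes with the standard error (SE) of the fit.

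The endoplasmic reticulum folds proteins that are bound for the membrane or for secretion. When unfolded proteins build up, the sensors IRE1, PERK and ATF6 start the unfolded protein response, which raises transcription of chaperones, disulphide isomerases and the machinery that pulls misfolded proteins out for degradation. In the heart the response is known from ischaemia, pressure overload and the secretory activity of cardiomyocytes and fibroblasts. Hspa5 (BiP) is the Hsp70 chaperone of the compartment and holds the sensors inactive, Hsp90b1 (GRP94) is its Hsp90 and Calr (calreticulin) its lectin chaperone for glycoproteins. Pdia4 and Pdia6 are disulphide isomerases. Manf is a small secreted and luminal protein that binds BiP, Creld2 and Sdf2l1 are luminal proteins induced by endoplasmic reticulum stress, and Dnajb9 (ERdj4) is a J-domain partner of BiP. Herpud1 sits in the membrane in the degradation complex and is also reached by the ATF4 branch of the response.

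The promoters of the members were searched for the response elements of this pathway, and the stretches that hold a match are printed. RefSeq promoter sequences (GRCm38.p6, a window that spans the start of the gene) were given for 9 of the 10 members, and the promoter of Manf was not used here. Capitals mark the matches, on either strand, and lower case marks the 10 bases on each side and what lies between matches.
Hspa5, chr2:34772015-34772053, plus strand: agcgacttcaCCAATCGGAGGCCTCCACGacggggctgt
Hsp90b1, chr10:86705523-86705666, minus strand: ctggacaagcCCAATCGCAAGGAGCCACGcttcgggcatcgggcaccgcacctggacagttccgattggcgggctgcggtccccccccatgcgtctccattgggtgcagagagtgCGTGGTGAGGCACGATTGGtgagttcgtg
Calr, chr8:84847065-84847103, minus strand: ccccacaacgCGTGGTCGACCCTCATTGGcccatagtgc
Pdia6, chr12:17266481-17266519, plus strand: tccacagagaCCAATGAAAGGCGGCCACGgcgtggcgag
Creld2, chr15:88819510-88819548, plus strand: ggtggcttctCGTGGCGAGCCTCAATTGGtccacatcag
Herpud1, chr8:94386307-94386397, plus strand: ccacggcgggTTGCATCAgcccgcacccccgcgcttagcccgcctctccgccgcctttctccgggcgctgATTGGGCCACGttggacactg
The endoplasmic reticulum stress response element, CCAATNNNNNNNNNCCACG, was found in 5 of the 9 promoters, those of Hspa5, Hsp90b1, Calr, Pdia6 and Creld2, and in 0.119% of all 32851 promoters of the table. Hsp90b1 had 2 matches. The second form of the element, ATTGGNCCACG, which shares the CCACG end, was found in Herpud1 and in 0.0365% of all promoters. Herpud1 also held TTGCATCA, the C/EBP-ATF element that ATF4 is known to bind, as did 0.895% of all promoters. The XBP1-type core TGACGTGG was in none of the 9 windows, against 0.676% of all promoters. Pdia4, Sdf2l1 and Dnajb9 held no match. Matches did not overlap one another, and they describe these windows only. Any link between the matches and the changes with smoke was not tested.

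Some arrays stood apart. RW-MS 2, 6 and 8 listed Sln, an atrial gene, between 4.47 and 5.42, against 12.16 to 12.97 in the other RW-MS hearts and 11.56 to 12.83 in RW-SC hearts, and 4 of 9 atrial markers were lower in RW-MS than in RW-SC hearts. In RW-SS 7 the 3′ minus 5′ signal of Gapdh, a sign of RNA quality, was 0.94, against 0.21 to 0.40 on the other 44 arrays. Cardiomyocyte markers were at the top of the array in every heart, with a mean between 13.78 and 13.87. The mean of 12 fibroblast markers had medians of 9.73 in RW-MS, 9.74 in RW-SS and 9.94 in RW-SC hearts, and of 9.85 in DIO-MS, 10.04 in DIO-SS and 9.87 in DIO-SC hearts, with 1 marker past the test, higher, in DIO-SS hearts. Endothelial markers were higher in DIO-SS than in DIO-SC hearts for 6 of 11, and 3 of 3 red cell markers were higher in RW-SS than in RW-SC hearts. In whole tissue, fewer cells of a type and less RNA per cell cannot be told apart.

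In smoke-exposed hearts of both diets the chaperone Hspa5 fell and the degradation gene Herpud1 rose. Herpud1 lay above the mean of its own diet's air hearts in 29 of 29 smoke hearts. Hspa5 and Manf lay below together in 27 of 29, the exceptions being RW-SS 6 and RW-SS 7. The genes of these tallies were chosen with results of these data known, and such tallies were not made over all genes. Most members passed after mainstream smoke at regular weight, where 6 of the 10 fell and 1 rose, against 6.86% of all genes. After sidestream smoke 4 passed in either diet, against 24.6% of all genes in RW-SS and 31.8% in DIO-SS hearts. That order turned without RW-MS 2, 6 and 8, the hearts low in Sln, which left 2 members in RW-MS and 4 in each sidestream comparison. The shares of all genes were then 4.09% in RW-MS, 25.8% in RW-SS and 33.3% in DIO-SS hearts. Without RW-MS 2, 6 and 8 fewer hearts enter the fit, and the part of their number in the lost calls was not tested. Hsp90b1 (-0.135), Calr (-0.178) and Herpud1 (0.248) lost the call in RW-MS hearts but stayed near their values with all hearts. Pdia4 (-0.155) and Pdia6 (-0.1375) lost it with smaller changes. With all hearts kept and the atrial mean as a covariate, Hsp90b1, Calr, Pdia4 and Pdia6 also lost the call in RW-MS hearts (limma, adjusted p = 0.0852, 0.116, 0.0925 and 0.0846). Creld2, Sdf2l1 and Dnajb9 did not pass the test in any of the 4 smoke comparisons. Air hearts are shared by the mainstream and the sidestream comparison of a diet, and they also enter the diet comparison in air. The values of these comparisons are set side by side and are not independent.

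**Figure D1:**
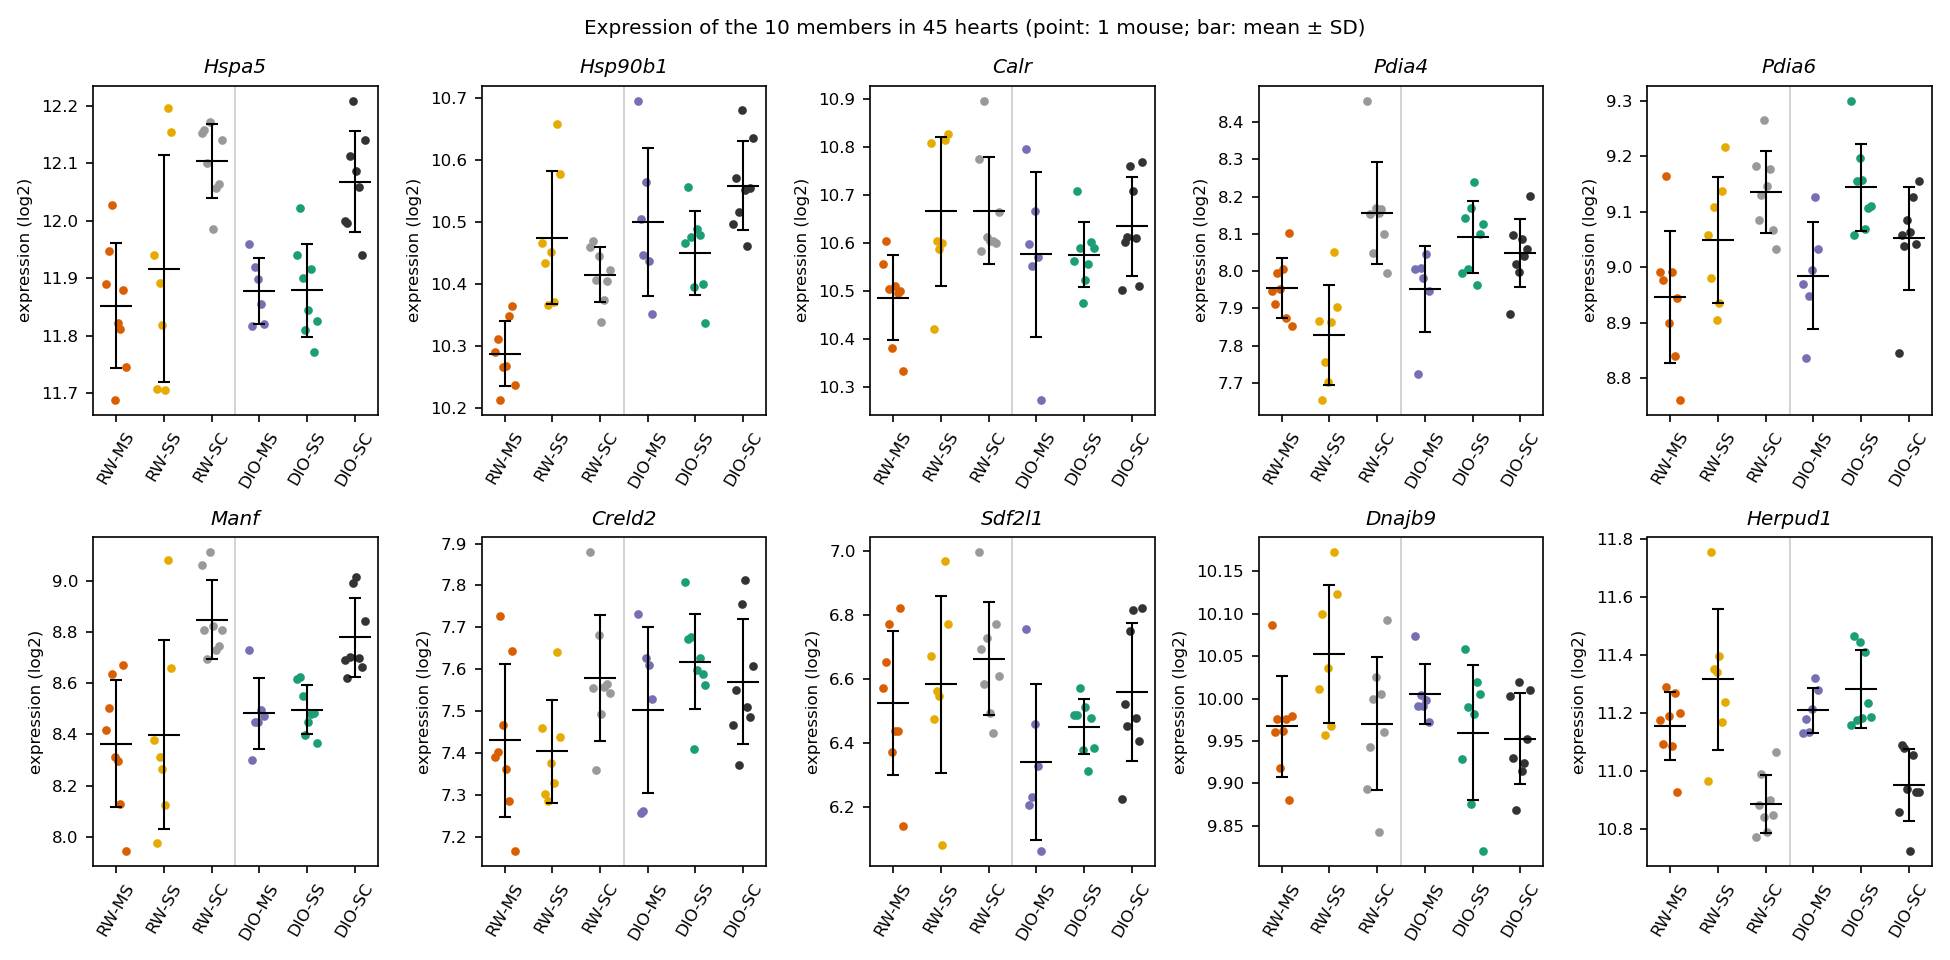
Log2 expression of the 10 members in every heart, by group on the x axis, with the mean and SD as black bars (n = 8, 7, 8, 6, 8 and 8 from left to right). Manf and Hspa5 sit lower and Herpud1 sits higher in smoke hearts than in air hearts of the same diet, and the vertical scale differs between panels.

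Hspa5 ranged from 11.69 to 12.03 with a median of 11.85 in RW-MS hearts, against 11.98 to 12.17 with a median of 12.12 in RW-SC hearts. All but 1 RW-MS heart lay below every RW-SC heart, and the change was -0.25 ± 0.05, a fold of 0.84 (limma, adjusted p = 0.00205). RW-SS hearts ranged from 11.71 to 12.20 with a median of 11.89 and were split, with 5 of 7 below every RW-SC heart, RW-SS 7 among the air values and RW-SS 6 just above all of them. The change there was -0.19 ± 0.06 (adjusted p = 0.0117), and without RW-SS 6 it was -0.23. In obese mice Hspa5 ranged from 11.82 to 11.96 with a median of 11.88 in DIO-MS hearts, from 11.77 to 12.02 with a median of 11.87 in DIO-SS hearts and from 11.94 to 12.21 with a median of 12.07 in DIO-SC hearts. Every smoke heart was below the DIO-SC mean although the ranges overlapped. The changes were -0.19 ± 0.06 with mainstream smoke (adjusted p = 0.0492) and -0.19 ± 0.05 with sidestream smoke (adjusted p = 0.00693). The mainstream call in obese mice lies at the threshold and ended without any 1 of 10 of the 14 arrays, with adjusted p up to 0.113. A second probe set of Hspa5 changed by -0.22 ± 0.05, -0.21 ± 0.05, -0.18 ± 0.06 and -0.18 ± 0.05 in the RW-MS, RW-SS, DIO-MS and DIO-SS comparisons.

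Manf, the secreted partner of BiP, had the largest falls among the members where each gene is read by its brightest probe set. It ranged from 7.94 to 8.67 with a median of 8.36 in RW-MS hearts and from 8.70 to 9.11 with a median of 8.81 in RW-SC hearts, and the groups did not overlap. Its change was -0.49 ± 0.10, a fold of 0.714 (adjusted p = 0.00157). In RW-SS hearts Manf ranged from 7.98 to 9.08 with a median of 8.31, with 6 of 7 below all RW-SC hearts and RW-SS 6 at the top, near the highest air heart. The change was -0.45 ± 0.11 (adjusted p = 0.0016) and -0.56 without that heart. DIO-MS hearts ranged from 8.30 to 8.73 with a median of 8.46, DIO-SS hearts from 8.37 to 8.63 with a median of 8.48 and DIO-SC hearts from 8.62 to 9.02 with a median of 8.70. Of the smoke hearts, 5 of 6 after mainstream and 7 of 8 after sidestream smoke lay below every DIO-SC heart. With sidestream smoke the fall of Manf was -0.28 ± 0.10 (adjusted p = 0.0306), a call that ended without DIO-SC 4 (0.0663), DIO-SC 5 (0.0696), DIO-SS 4 (0.0535) or DIO-SS 8 (0.0551). With mainstream smoke the value was -0.30 ± 0.11 and did not pass (adjusted p = 0.115).

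Herpud1, which helps assemble the degradation complex of the membrane, went the other way. It ranged from 10.93 to 11.29 with a median of 11.18 in RW-MS hearts, from 10.96 to 11.75 with a median of 11.34 in RW-SS hearts and from 10.77 to 11.06 with a median of 10.87 in RW-SC hearts. All but 1 RW-MS and all but 1 RW-SS heart lay above every RW-SC heart, and RW-SS 2 was the highest of the 45. The changes were 0.27 ± 0.07 with mainstream smoke (adjusted p = 0.0117) and 0.43 ± 0.07, a fold of 1.35, with sidestream smoke (adjusted p = 1.94e-05). In obese mice Herpud1 ranged from 11.13 to 11.32 with a median of 11.19 in DIO-MS hearts, from 11.16 to 11.46 with a median of 11.21 in DIO-SS hearts and from 10.72 to 11.09 with a median of 10.93 in DIO-SC hearts. Neither smoke group overlapped with DIO-SC hearts. The changes were 0.26 ± 0.07 (adjusted p = 0.0352) with mainstream and 0.33 ± 0.07 (adjusted p = 0.000368) with sidestream smoke. The mainstream call in obese mice ended without any 1 of 7 of the 14 arrays, with adjusted p up to 0.101. A second probe set of Herpud1 changed by 0.27 ± 0.07, 0.44 ± 0.07, 0.24 ± 0.08 and 0.27 ± 0.07 in the same 4 comparisons.

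**Figure D2:**
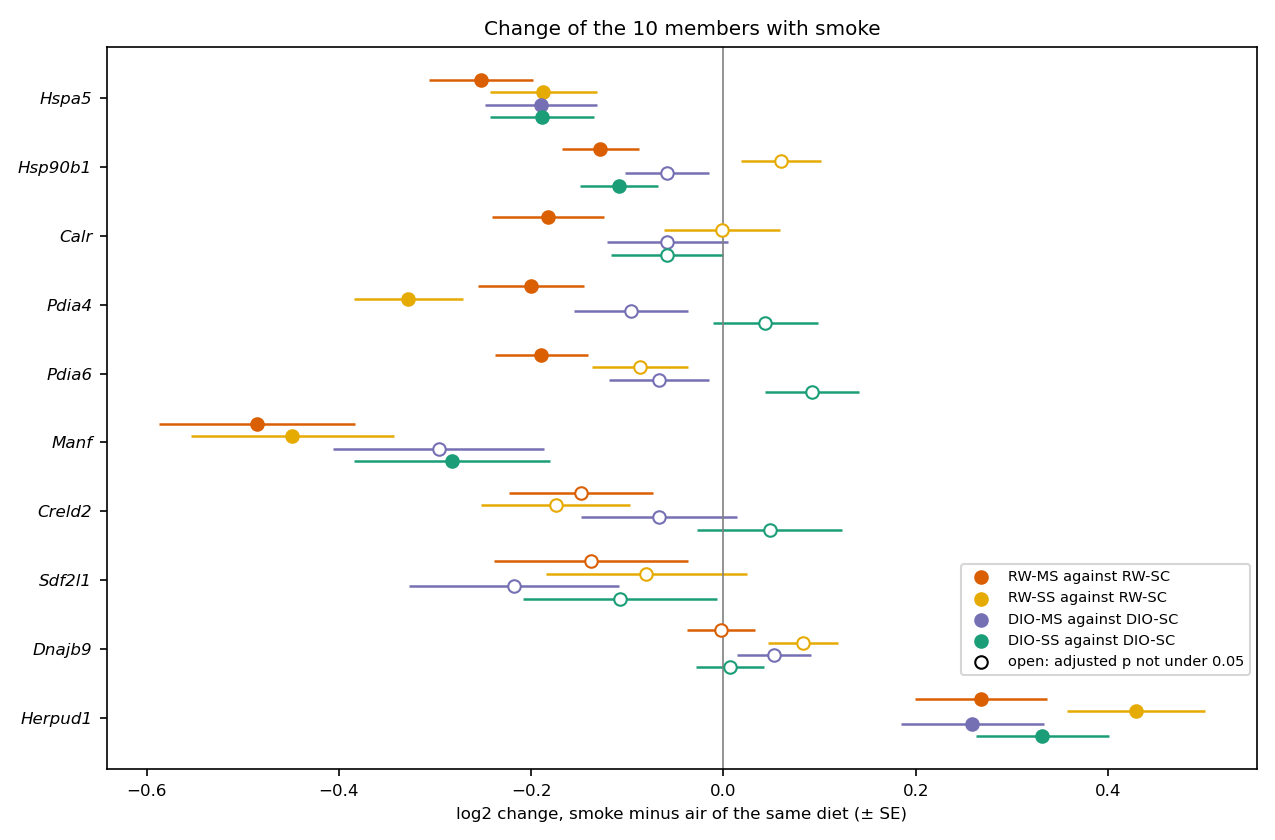
Log2 change of each member with smoke against air of the same diet (x axis, point with SE), with filled points where the adjusted p was under 0.05. Hspa5 lies left of 0 and Herpud1 right of 0 in the 4 comparisons, Manf lies furthest left, at -0.49 in RW-MS hearts, and the isomerases Pdia4 and Pdia6 spread from the left to the right of 0.

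The disulphide isomerase Pdia4 fell with both smokes at regular weight, and Pdia6 with mainstream smoke. Pdia4 ranged from 7.85 to 8.10 with a median of 7.95 in RW-MS hearts, from 7.66 to 8.05 with a median of 7.86 in RW-SS hearts and from 7.99 to 8.46 with a median of 8.16 in RW-SC hearts. RW-SS hearts were the lowest, with 6 of 7 below all air hearts, and RW-SC 1 was alone at the top. The changes were -0.20 ± 0.05 with mainstream (adjusted p = 0.0182) and -0.33 ± 0.06, a fold of 0.797, with sidestream smoke (adjusted p = 3.36e-05). Without RW-SC 1 the mainstream call ended (adjusted p = 0.0614). In obese mice Pdia4 had medians of 7.99 in DIO-MS, 8.11 in DIO-SS and 8.05 in DIO-SC hearts, and neither change passed (-0.10, adjusted p = 0.415, and 0.04, adjusted p = 0.568). Pdia6 ranged from 8.76 to 9.16 with a median of 8.96 in RW-MS hearts and from 9.03 to 9.27 with a median of 9.14 in RW-SC hearts. All but 1 RW-MS heart lay below every RW-SC heart, with a change of -0.19 ± 0.05 (adjusted p = 0.0112). Its other smoke values did not pass: -0.09 in RW-SS (adjusted p = 0.206), -0.07 in DIO-MS (adjusted p = 0.548) and 0.09 in DIO-SS hearts (adjusted p = 0.143). Averaged over all probe sets of a gene, Pdia4 was 0.0183 in RW-MS (adjusted p = 0.856) and -0.10 in RW-SS hearts (0.0606), and Pdia6 was -0.07 in RW-MS hearts (0.373), so these 3 calls rest on the brightest probe set. The only other probe set of each gene is dim, with a mean of 4.32 for Pdia4 and 3.87 for Pdia6. Both lay below the filter and were not tested.

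Calr fell with mainstream smoke at regular weight, where it ranged from 10.33 to 10.60 with a median of 10.50 in RW-MS hearts and from 10.58 to 10.90 with a median of 10.61 in RW-SC hearts. All but 1 RW-MS heart lay below every RW-SC heart, and the change was -0.18 ± 0.06 (adjusted p = 0.0478). This call is at the threshold and ended without any 1 of 13 of the 16 arrays, with adjusted p up to 0.123. The other 2 probe sets of Calr changed by -0.17 ± 0.05 and -0.17 ± 0.05 in the same hearts, with adjusted p of 0.0397 and 0.0527 over all probe sets. In the RW-SS, DIO-MS and DIO-SS comparisons the Calr values were 0.00, -0.06 and -0.06, and none passed. Creld2 was -0.15 ± 0.08 in RW-MS and -0.17 ± 0.08 in RW-SS hearts, without passing (adjusted p = 0.259 and 0.0936). Without RW-SS 6 the sidestream value of Creld2 passed (adjusted p = 0.0451). Sdf2l1 was between -0.22 and -0.08 in the 4 comparisons with adjusted p of 0.283 to 0.615, with broad overlap of the groups. Dnajb9 stayed between 0.00 and 0.08, and its value in RW-SS hearts passed without RW-SC 8 (adjusted p = 0.0425).

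The probe sets of Hsp90b1 disagreed. The brighter one, which stands for the gene, ranged from 10.21 to 10.37 with a median of 10.28 in RW-MS hearts, from 10.37 to 10.66 with a median of 10.45 in RW-SS hearts and from 10.34 to 10.47 with a median of 10.42 in RW-SC hearts. RW-MS hearts were low, with 6 of 8 below every RW-SC heart, and RW-SS hearts overlapped with RW-SC hearts. The changes were -0.13 ± 0.04 with mainstream (adjusted p = 0.0454) and 0.06 ± 0.04 with sidestream smoke (adjusted p = 0.306). The mainstream call ended without any 1 of 12 of the 16 arrays, with adjusted p up to 0.0889. In obese mice it was -0.06 ± 0.04 with mainstream (adjusted p = 0.525) and -0.11 ± 0.04 with sidestream smoke (adjusted p = 0.0358), and the second call ended without DIO-SC 4, DIO-SC 8, DIO-SS 4, DIO-SS 7 or DIO-SS 8 (adjusted p = 0.0644 to 0.0903).

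The dimmer probe set of Hsp90b1 ranged from 9.77 to 10.33 with a median of 10.01 in RW-MS hearts, from 9.004 to 9.85 with a median of 9.77 in RW-SS hearts and from 10.22 to 10.42 with a median of 10.35 in RW-SC hearts. Every RW-SS heart lay below every RW-SC heart, and RW-SS 7, the heart with the high 3′ minus 5′ signal, was the lowest of all. In obese mice it ranged from 10.16 to 10.50 with a median of 10.25 in DIO-MS hearts, from 9.52 to 10.20 with a median of 10.04 in DIO-SS hearts and from 10.33 to 10.64 with a median of 10.52 in DIO-SC hearts. DIO-SS hearts did not overlap with DIO-SC hearts. Tested with all 15295 probe sets above the filter, it changed by -0.71 ± 0.09 in RW-SS (adjusted p = 2.13e-07), -0.55 ± 0.09 in DIO-SS (adjusted p = 1.69e-05), -0.31 ± 0.09 in RW-MS (adjusted p = 0.0323) and -0.23 ± 0.10 in DIO-MS hearts (adjusted p = 0.19). So the direction of Hsp90b1 after sidestream smoke at regular weight depends on the probe set, and which transcripts each probe set reads was not tested.

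**Figure D3:**
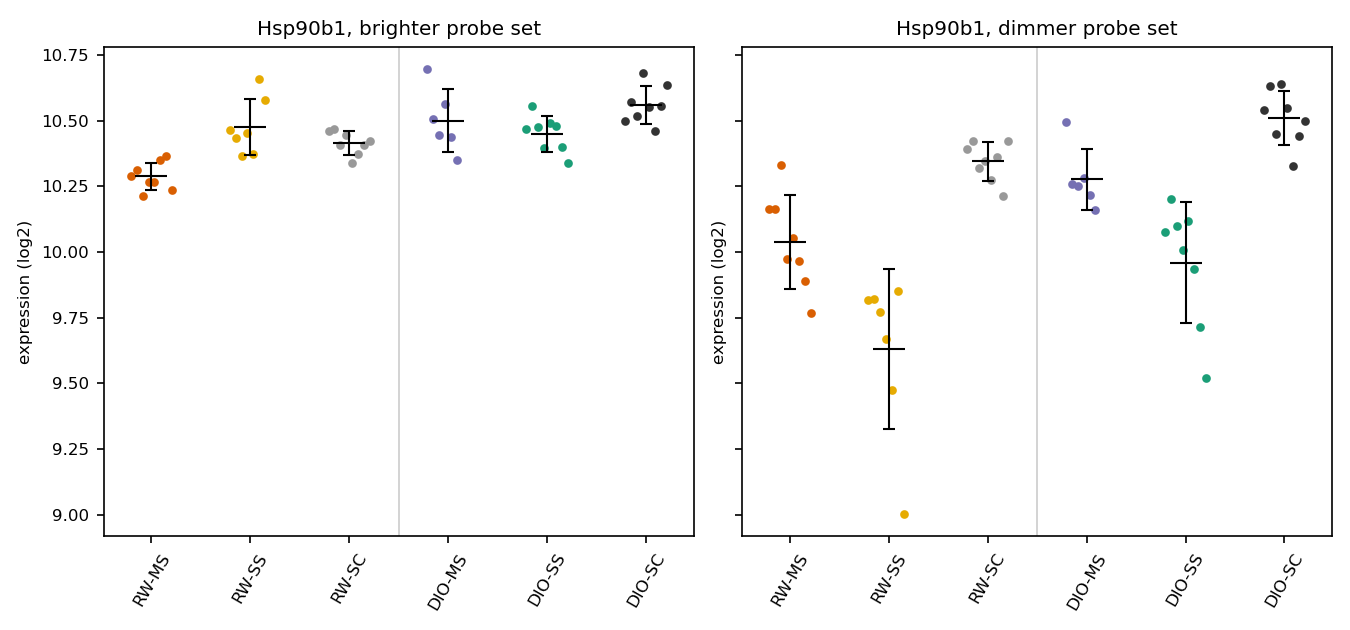
Log2 expression from the brighter (left) and the dimmer (right) Hsp90b1 probe set in every heart, by group on the x axis, with mean and SD as black bars. On the left RW-SS hearts overlap with RW-SC hearts, and on the right RW-SS hearts reach at most 9.85 and RW-SC hearts lie at 10.22 or above.

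Read against all genes in the 4 smoke comparisons, the share of members called was above the background with mainstream smoke and nearer to it with sidestream smoke. The members were chosen with earlier results of these data known, so these shares are a description and not a test. With mainstream smoke at regular weight 7 of 10 members passed, 1 higher and 6 lower, against 6.86% of all genes tested (2.86% higher and 4.0% lower). After a further quantile normalization 5 members passed, against 3.91% of all genes higher and 3.61% lower. In the main fit the median of the members was -0.17 and that of all genes 0.00. Without RW-MS 2, 6 and 8, 2 members passed, against 4.09% of all genes. Those were Hspa5 (-0.24, adjusted p = 0.0173) and Manf (-0.38, adjusted p = 0.0364), while Herpud1 had 0.25 (adjusted p = 0.0703). Leaving out any 1 array gave 4 to 6 members, never 7, and RW-SC 1 moved the count furthest, to 4. With the fibroblast marker mean in the fit, 3 members passed.

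With sidestream smoke at regular weight 4 members passed, 1 higher and 3 lower, against 24.6% of all genes (11.7% higher and 13.0% lower). After the further normalization 5 passed, against 14.8% of all genes higher and 9.55% lower. In the main fit the share of members called is not far from that of all genes, and the members' median was -0.08 against 0.00. Leaving out RW-SS 7 kept the count at 4, and leaving out RW-SS 6 gave 5. In obese mice mainstream smoke called 2 members, Herpud1 higher and Hspa5 lower, against 4.55% of all genes (3.66% higher and 0.893% lower), with medians of -0.07 for the members and 0.01 for all genes. The count was 0 without DIO-SC 4, DIO-SC 5, DIO-MS 2, DIO-MS 4, DIO-MS 5 or DIO-MS 6. Sidestream smoke in obese mice called 4 members, Herpud1 higher and Hspa5, Manf and Hsp90b1 lower, against 31.8% of all genes. There the background split the other way, with 23.0% of all genes higher and 8.82% lower. After the further normalization 4 members passed again, against 14.0% of all genes higher and 9.81% lower. In the main fit the medians were -0.03 for the members and 0.04 for all genes. The count was 2 without DIO-SC 4, DIO-SS 4 or DIO-SS 8.

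The high-fat diet alone left the members nearly in place. Hsp90b1 was the 1 member called in DIO-SC against RW-SC hearts, where 20.3% of all genes passed. It ranged from 10.46 to 10.68 with a median of 10.55 in DIO-SC hearts and from 10.34 to 10.47 with a median of 10.42 in RW-SC hearts. All but 1 DIO-SC heart lay above every RW-SC heart, and the change was 0.14 ± 0.04 (adjusted p = 0.0095). The second probe set was 0.17 ± 0.09 (adjusted p = 0.198). Hspa5, Manf and Herpud1 had -0.04, -0.07 and 0.06, none of which passed. Under mainstream smoke the diet again called Hsp90b1, with 0.21 ± 0.04 (adjusted p = 0.000726), against 10.6% of all genes. Its second probe set was 0.24 ± 0.10 there and did not pass (adjusted p = 0.118). Under sidestream smoke 3 members passed, against 32.6% of all genes. These were Pdia4 (0.26 ± 0.06, adjusted p = 0.000472), Creld2 (0.21 ± 0.08, adjusted p = 0.0312) and Dnajb9 (-0.09 ± 0.04, adjusted p = 0.0474). Hsp90b1 did not pass on its brighter probe set (-0.02 ± 0.04, adjusted p = 0.682). On its second probe set it was 0.33 ± 0.09 and passed (adjusted p = 0.00591 over all probe sets). The calls of Creld2 and Dnajb9 ended without any 1 of 5 and of 8 of the 15 arrays, with adjusted p up to 0.071 and 0.134, and the count was 1 without RW-SS 2, RW-SS 4 or DIO-SS 1.

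Sidestream against mainstream smoke differed for 1 member at regular weight, Hsp90b1, where 5.82% of all genes passed. Every RW-SS heart lay above every RW-MS heart, but barely, with a lowest value of 10.366 against a highest of 10.365. The change was 0.19 ± 0.04 (limma, adjusted p = 0.00523), and the call ended with only the groups compared in the fit (adjusted p = 0.115). The second probe set of Hsp90b1 went the other way, at -0.41 ± 0.09 (adjusted p = 0.00455). Without RW-SS 1, Herpud1 passed as well (adjusted p = 0.0472), and without RW-SS 2, Calr did (adjusted p = 0.0232). In obese mice 0 members passed between the smokes by limma (2 at an unadjusted p under 0.05), against 2.55% of all genes. Pdia6 came nearest, at 0.16 ± 0.05 (adjusted p = 0.0726), and passed without DIO-MS 5 (0.0347) or DIO-MS 6 (0.0484). Hspa5 and Manf were nearly equal under both smokes, at 0.00 ± 0.06 and 0.01 ± 0.11.

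Whether the smoke effect differed between the diets was tested as an interaction, in which a positive value means a higher response in DIO than in RW mice. For mainstream smoke 0 members passed by limma (0 also at an unadjusted p under 0.05), against 0.226% of all genes, and the members lay between -0.08 for Sdf2l1 and 0.19 for Manf. The SE of 0.05 to 0.15 leaves room for differences of the size of the effects themselves. For sidestream smoke 3 members passed, against 28.4% of all genes, a share near the background. Pdia4 had 0.37 ± 0.08 (adjusted p = 0.000842), Pdia6 0.18 ± 0.07 (adjusted p = 0.0495) and Hsp90b1 -0.17 ± 0.06 (adjusted p = 0.0278). Pdia6 lost the call without any 1 of 21 of the 31 arrays, with adjusted p up to 0.096, and Hsp90b1 lost it without RW-SS 6 (adjusted p = 0.0623). On the second Hsp90b1 probe set the interaction was 0.16 ± 0.13 (adjusted p = 0.346). Herpud1, Hspa5 and Manf, with -0.10 ± 0.10, 0.00 ± 0.08 and 0.17 ± 0.15, did not pass.

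Across the 45 hearts, after each group's mean was taken off, 8 members varied together. The 28 pairs among Hspa5, Hsp90b1, Calr, Pdia4, Pdia6, Manf, Creld2 and Sdf2l1 had Pearson correlations of 0.098 to 0.815 with a median of 0.538, the highest between Hspa5 and Manf. Herpud1 had negative correlations with 8 of the other 9, from -0.48 to 0.19, and Dnajb9 lay between, from -0.13 to 0.54 with the 8. These values describe hearts that share an array, a normalization and a mix of cells, and were not tested. For a mean profile of the members, each was standardized (minus its mean over the hearts, divided by its SD). Herpud1 entered that profile with the same sign as the others. Among the genes tested outside the members, the 10 most like it (Pearson correlation over 45 hearts, group differences included) began with Xbp1 (0.713), the transcription factor of the IRE1 branch. Hyou1 (0.689), an Hsp110-type chaperone of the endoplasmic reticulum, came next. The list went on with Ckap4 (0.630), Lyve1 (0.630), Rpn1 (0.625), Ccl6 (0.607), Pdia3 (0.595), Rcan1 (0.593), Ccl9 (0.589) and Ms4a6d (0.579). The part of a shared mix of cells in these correlations was not tested either.

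**Figure D4:**
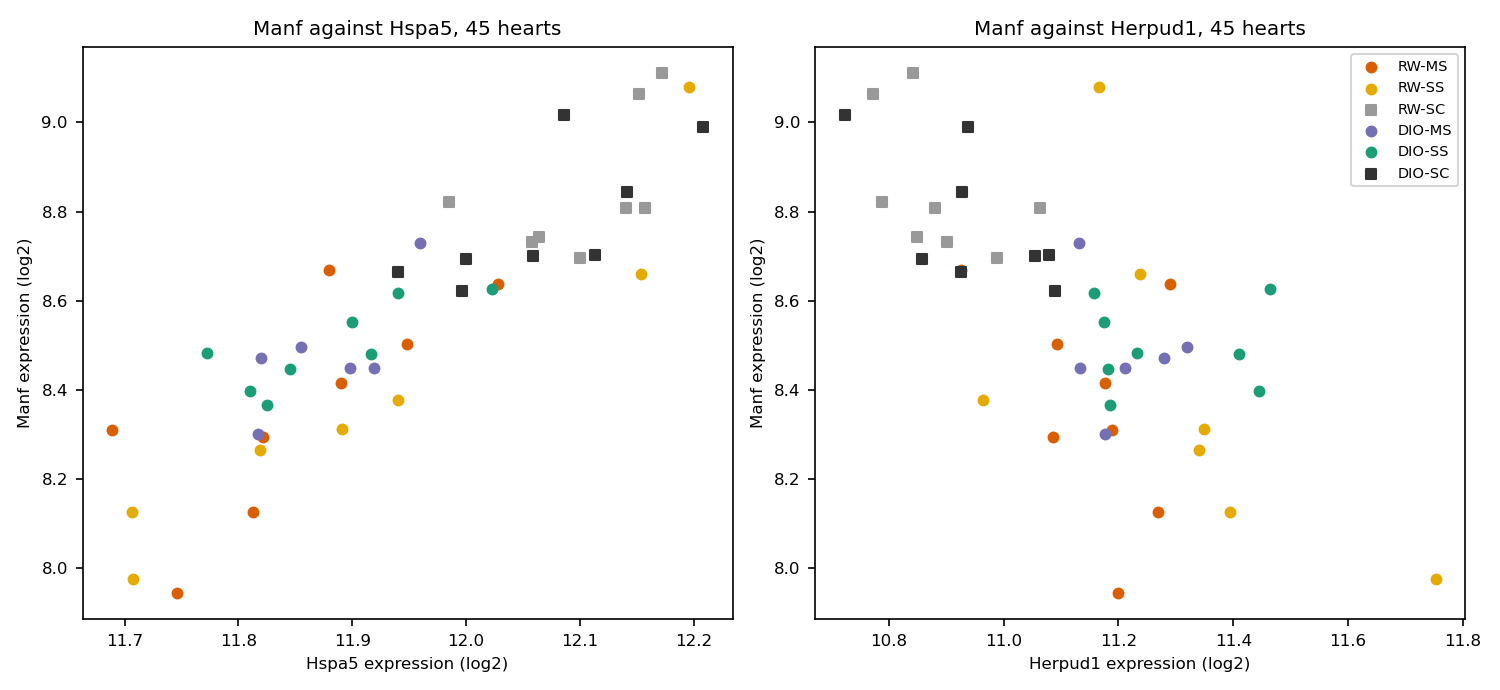
Log2 expression of Manf (y axis) against Hspa5 (left) and Herpud1 (right) in the 45 hearts, with circles for smoke and squares for air. On the left the hearts lie along a rising band with most smoke hearts at its low end, and on the right air hearts gather at low Herpud1 and high Manf, with 1 RW-SS heart at 9.08 for Manf standing above the other smoke hearts.

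Lists of other genes of the pathway are read here against all genes tested, of which 2.86% rose and 4.0% fell in RW-MS, 11.7% rose and 13.0% fell in RW-SS, 3.66% rose and 0.893% fell in DIO-MS, and 23.0% rose and 8.82% fell in DIO-SS hearts. Among sensors and transcription factors of the response, Xbp1 was -0.06, 0.04, -0.12 and -0.09 in RW-MS, RW-SS, DIO-MS and DIO-SS hearts and passed in none (adjusted p = 0.61, 0.665, 0.296 and 0.228). Ern1, the gene of IRE1, rose in RW-SS hearts (0.30 ± 0.08, adjusted p = 0.00545). Atf6 rose in DIO-MS (0.19 ± 0.05, adjusted p = 0.0106) and DIO-SS hearts (0.31 ± 0.04, adjusted p = 1.19e-06). Eif2ak3, the gene of PERK, did not pass in the 4 smoke comparisons (adjusted p = 0.463, 0.15, 0.957 and 0.189). Of 18 sensors and transcription factors, none rose and 2 fell in RW-MS, 1 rose and 4 fell in RW-SS, 1 rose and none fell in DIO-MS, and 4 rose and 2 fell in DIO-SS hearts. With sidestream smoke 5 of 18 passed in RW-SS (5.56% higher and 22.2% lower) and 6 of 18 in DIO-SS hearts (22.2% higher and 11.1% lower), in either direction near the 24.6% and 31.8% of all genes. Creb3l2, a membrane-bound transcription factor of the secretory pathway, was among the falls in RW-MS hearts (-0.38 ± 0.10, adjusted p = 0.0114), and Nfyb, a subunit of the CCAAT-binding factor NF-Y, in RW-SS (-0.38 ± 0.05, adjusted p = 1.76e-06) and DIO-SS hearts (-0.24 ± 0.05, adjusted p = 0.000531). With the diet in air, Atf4 (0.26 ± 0.04, adjusted p = 9.11e-07), Atf3 (0.40 ± 0.08, adjusted p = 0.000553) and Ddit3 (0.17 ± 0.05, adjusted p = 0.0164), factors of the PERK branch, rose while Hspa5 did not pass.

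Targets of the PERK and ATF4 branch were mixed. Of 22 tested, 2 rose and none fell in RW-MS, 4 rose and 2 fell in RW-SS, 1 rose and none fell in DIO-MS, and 1 rose and 2 fell in DIO-SS hearts. In RW-SS hearts that is 18.2% higher and 9.09% lower, and in DIO-SS hearts 4.55% higher and 9.09% lower. Ddit4, a stress-induced inhibitor of mTORC1, rose in RW-MS (0.56 ± 0.17, adjusted p = 0.0424) and RW-SS hearts (1.09 ± 0.18, adjusted p = 1.7e-05). Cebpb, a transcription factor, rose in RW-MS (0.43 ± 0.07, adjusted p = 2.36e-05) and RW-SS hearts (0.63 ± 0.07, adjusted p = 1.03e-08) and fell in DIO-SS hearts (-0.26 ± 0.07, adjusted p = 0.00333). Trib3, Asns and Chac1, which the ATF4 branch is known to raise, had 0.04, -0.15 and -0.21 in RW-SS hearts, and none passed (adjusted p = 0.751, 0.487 and 0.242).

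Other folding enzymes followed the fall at regular weight in part. Of 27 outside the members, 6 fell and none rose in RW-MS, 7 fell and 2 rose in RW-SS, none passed in DIO-MS, and 2 fell and 6 rose in DIO-SS hearts. Pdia3, the isomerase that works with calreticulin, fell in RW-MS (-0.26 ± 0.07, adjusted p = 0.0109) and RW-SS hearts (-0.32 ± 0.07, adjusted p = 0.000507). Hyou1 fell in RW-MS hearts (-0.19 ± 0.05, adjusted p = 0.0197). Dnajc3, a co-chaperone of BiP, fell in RW-SS (-0.31 ± 0.06, adjusted p = 0.000255) and DIO-SS hearts (-0.19 ± 0.06, adjusted p = 0.0131). Erp44, which retains thiol clients in the early secretory pathway, rose in DIO-SS hearts (0.21 ± 0.03, adjusted p = 1.66e-06). In RW-MS hearts 22.2% fell, in RW-SS hearts 25.9% fell, and the 22.2% that rose in DIO-SS hearts are near the share of all genes. The list's median was -0.07 in RW-MS, -0.08 in RW-SS, -0.01 in DIO-MS and 0.07 in DIO-SS hearts, beside 0.00, 0.00, 0.01 and 0.04 for all genes. In DIO-SS hearts 6 of 11 endothelial markers were also higher, and their part in these rises was not tested.

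Genes of the degradation pathway that Herpud1 belongs to were mixed. Of 22 outside the members, 1 rose and 2 fell in RW-MS, 3 rose and 2 fell in RW-SS, none passed in DIO-MS, and 6 rose and 2 fell in DIO-SS hearts, with medians of 0.02, 0.00, 0.02 and 0.07, beside 0.00, 0.00, 0.01 and 0.04 for all genes. The 27.3% that rose and 9.09% that fell in DIO-SS hearts are near the shares of all genes. Sel1l and Syvn1, the core of the ubiquitin ligase complex that Herpud1 joins, were 0.03 and -0.10 in RW-MS, 0.02 and -0.10 in RW-SS, 0.05 and -0.12 in DIO-MS and 0.06 and -0.04 in DIO-SS hearts, and neither passed. Ubxn4, which docks the p97 extraction machine at the membrane, fell in RW-SS hearts (-0.50 ± 0.08, adjusted p = 1.17e-05). Aup1, a ligase adaptor also found on lipid droplets, rose in RW-MS (0.13 ± 0.04, adjusted p = 0.0281) and DIO-SS hearts (0.20 ± 0.04, adjusted p = 0.000111).

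**Figure D5:**
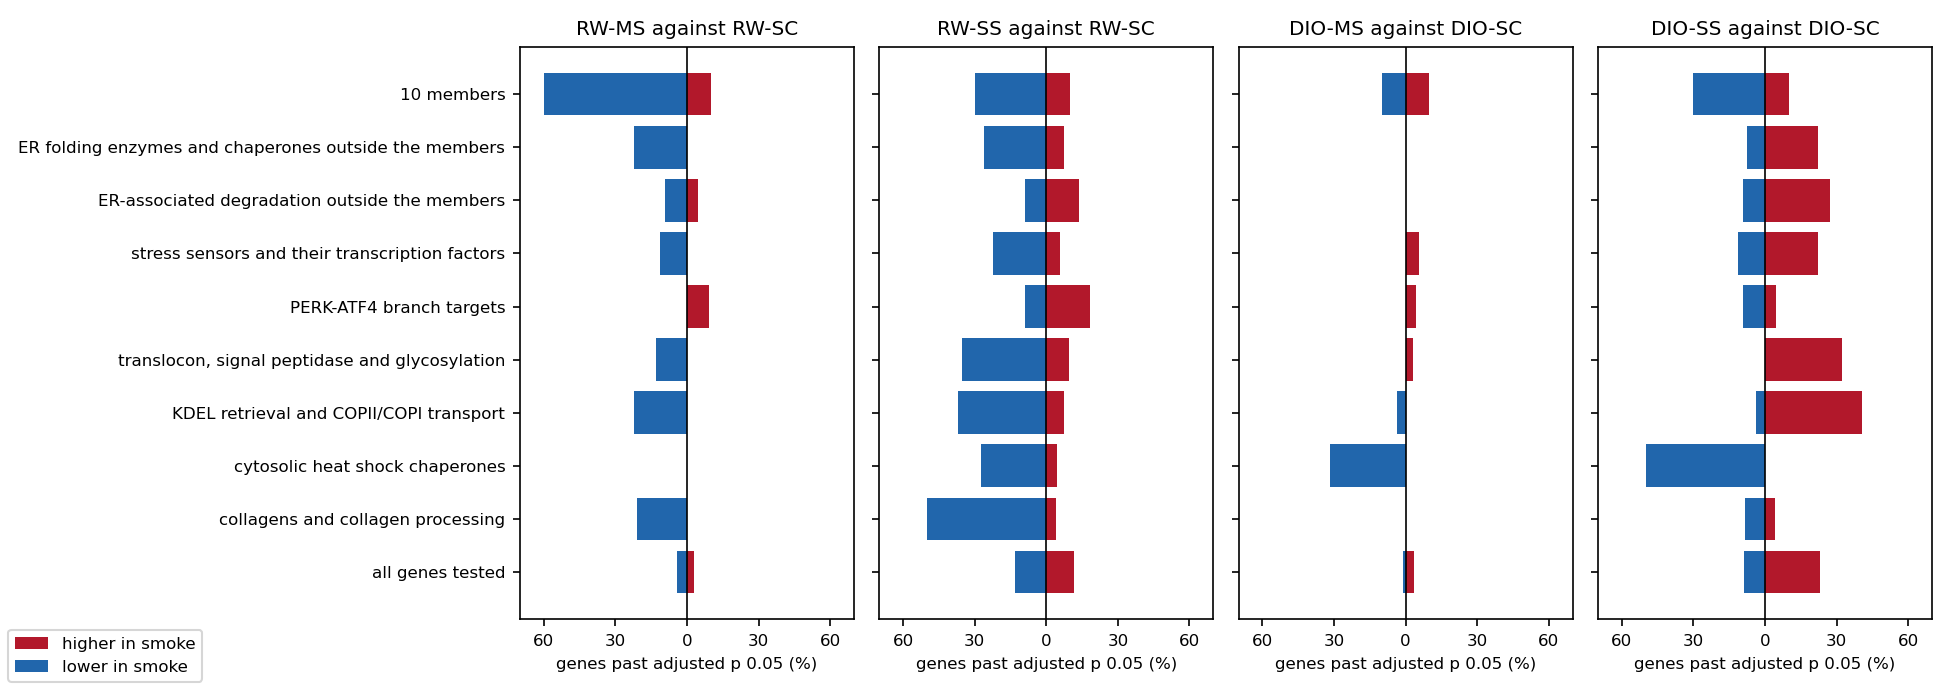
Share of each gene list past an adjusted p of 0.05 in the 4 smoke comparisons (x axis, percent of genes tested), with rises to the right and falls to the left of 0, and all 9295 genes in the bottom row. At 60% lower in RW-MS hearts the 10 members have the longest bar of that panel, and the transport and translocon lists point left in RW-SS hearts and right in DIO-SS hearts, where the bottom row also points right.

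Among genes for entry into and exit from the endoplasmic reticulum that passed the test, most were lower in RW-SS and higher in DIO-SS hearts. Of 27 genes of KDEL retrieval and vesicle transport, 6 fell and none rose in RW-MS, 10 fell and 2 rose in RW-SS, 1 fell and none rose in DIO-MS, and 1 fell and 11 rose in DIO-SS hearts. That is 37.0% lower in RW-SS and 40.7% higher in DIO-SS hearts, where the share of all genes that rose was 23.0%, or 14.0% after the further normalization. The list itself was not counted again after that normalization. The sidestream interaction passed for 15 of them, or 55.6%, all higher in DIO, against 18.3% of all genes higher and 28.4% in either direction. Lman1, a cargo receptor for glycoproteins, fell in RW-SS (-0.54 ± 0.07, adjusted p = 2.16e-07) and also in DIO-SS hearts (-0.28 ± 0.07, adjusted p = 0.00158). Sec23b, a coat protein of the exit vesicles, fell in RW-MS (-0.24 ± 0.05, adjusted p = 0.00287), RW-SS (-0.37 ± 0.06, adjusted p = 3.57e-06) and DIO-MS hearts (-0.21 ± 0.06, adjusted p = 0.029). Of 31 translocon, signal peptidase and glycosylation genes, 4 fell and none rose in RW-MS, 11 fell and 3 rose in RW-SS, none fell and 1 rose in DIO-MS, and none fell and 10 rose in DIO-SS hearts, with 35.5% lower in RW-SS and 32.3% higher in DIO-SS hearts. Sec61a1, the channel itself, fell in RW-SS hearts (-0.32 ± 0.07, adjusted p = 0.00125), and Sec63, which recruits BiP to the channel, rose in DIO-SS hearts (0.26 ± 0.06, adjusted p = 0.000446). The median of all genes was itself shifted by 0.06 in the sidestream interaction, and by 0.007 after the further normalization.

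Collagens are a main secretory load of fibroblasts. Of 24 collagen and collagen-processing genes, 5 fell and none rose in RW-MS, 12 fell and 1 rose in RW-SS, none passed in DIO-MS, and 2 fell and 1 rose in DIO-SS hearts. The falls are 20.8% of the list in RW-MS and 50% in RW-SS hearts, against 4.0% and 13.0% of all genes. Col4a2 fell in RW-MS (-0.30 ± 0.06, adjusted p = 0.00155) and RW-SS hearts (-0.47 ± 0.07, adjusted p = 8.24e-07), and Serpinh1, the collagen chaperone HSP47, in RW-SS hearts (-0.64 ± 0.13, adjusted p = 0.000363). The fibroblast marker medians of the RW smoke groups given above were also lower, but none of the 12 markers passed in either group. The mean of the markers differed from air by -0.181 in RW-MS and -0.093 in RW-SS hearts, where 5 and 12 genes of the collagen list fell. The part of the fibroblasts was not tested. Col1a1, Col1a2 and Col3a1 are in both lists, so the 2 are not independent. Of 22 cytosolic heat shock chaperones tested, none passed in RW-MS, 6 fell and 1 rose in RW-SS, 7 fell in DIO-MS and 11 fell in DIO-SS hearts, while 15 rose with the diet in air. That is 27.3% lower in RW-SS, 31.8% lower in DIO-MS and 50% lower in DIO-SS hearts, and 68.2% higher with the diet in air, where 6.92% of all genes were higher. Hspa1b, the inducible Hsp70 of the cytosol, fell in DIO-MS (-1.57 ± 0.26, adjusted p = 0.000475) and DIO-SS hearts (-1.77 ± 0.24, adjusted p = 9.61e-07) and rose with the diet in air (2.26 ± 0.24, adjusted p = 2.44e-09), where Hspa5 was -0.04. The same DIO-SC hearts enter each of these comparisons, so the rise with the diet and the falls with smoke are not independent.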

How the data were processed

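Total RNA from 45 hearts was labelled with biotin from 3 µg each and hybridized to 1 Affymetrix mouse array per mouse, per the labels' protocols, which call the arrays of a group biological replicates. The deposited values are log2 expression per probe set, made by RMA per the submitters' processing notes, a method that corrects background, normalizes by quantiles and summarises each probe set. Its version and software, and scan dates, were not given in the sources. Values ran from 2.12 to 14.77 and array medians from 6.20 to 6.24, so the arrays were used as deposited. Their number limits the precision, and no batch is named.

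Of 22690 probe sets, 20393 were annotated with 1 gene, and 20364 of these matched a RefSeq gene by Entrez identifier. The probe set with the highest mean stood for a gene, the lowest 25% of 12394 genes (mean below 4.90) were left out, and 9295 were tested. The 6 group means were fitted on all 45 arrays in R 4.3.3 by limma 3.58.1 (two-sided moderated tests from lmFit and eBayes with 42.6 degrees of freedom), and p-values were adjusted by Benjamini-Hochberg over all genes of a comparison, with a threshold of 0.05. Summaries and plots used Python 3.11.15, pandas 2.3.3 and matplotlib 3.10.9, and the fit was tested on simulated data. Group sizes and the smoke and diet comparisons follow the titles. Alternatives were other filters, other uses of the probe sets, eBayes and weight settings, a further quantile normalization, marker means or replicate numbers in the fit, and leaving out arrays.

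The 10 members and all lists were chosen with earlier results of these data known. Genes named outside the members are a set panel, up to 4 per list and comparison with the smallest adjusted p, and the 10 most alike. Protein sequences were not used here.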

Additional observations from a re-analysis of the deposited data

Results flagged for a closer look

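In 4 of 60 sets of a member and a group, 1 heart stood far from the others by a gap test that by chance marks about 1 in 20, which is 5%. RW-SC 1 was high for Pdia4 (8.46) and DIO-MS 2 was low for it (7.72). DIO-SC 1 was low for Pdia6 (8.85), and DIO-MS 1 was high for Dnajb9 (10.07). Leaving out RW-SC 1 changed the mainstream value of Pdia4 at regular weight to -0.16 (limma, adjusted p = 0.0614). The sidestream effect differed between the diets for 3 members by the interaction test, against 28.4% of all genes, a share near the background. The effect in DIO minus that in RW mice was 0.37 for Pdia4, which was 0.04 in DIO-SS and -0.33 in RW-SS hearts. It was 0.18 for Pdia6, with 0.09 in DIO-SS and -0.09 in RW-SS hearts, and -0.17 for Hsp90b1, with -0.11 in DIO-SS and 0.06 in RW-SS hearts. Pdia6 lost the call in 6 alternatives and without any 1 of 21 arrays. Averaging all probe sets of a gene ended all 3 calls.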

How the results depend on the processing

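Of 26 called changes of members, 9 kept direction and call in each of 14 alternatives and without any 1 array. These were Herpud1 in RW-SS and DIO-SS hearts, Manf in RW-MS and RW-SS hearts, Hspa5 in RW-MS and DIO-SS hearts, Hsp90b1 for the diet in air and under mainstream smoke, and Pdia4 for the diet under sidestream smoke. Leaving out 1 array gave 4 to 6 called members in RW-MS, 4 to 5 in RW-SS, 0 to 2 in DIO-MS and 2 to 4 in DIO-SS hearts against air. It gave 1 for the diet in air and under mainstream smoke, 1 to 3 for the diet under sidestream smoke, 1 to 2 between the smokes at regular weight, 0 to 1 in obese mice, 0 for the mainstream and 2 to 3 for the sidestream interaction. With RW-MS 2, 6 and 8 left out 2 members were called in RW-MS and 1 in DIO-MS hearts. With the atrial mean as a covariate 3 were called in RW-MS hearts. With the fibroblast mean as a covariate, chosen after seeing the data, 3 were called in RW-MS hearts, 1 in DIO-MS hearts and 1 for the diet under sidestream smoke. In DIO-MS hearts 1 was called with no filter on dim genes, with every probe set tested and after a further quantile normalization. The replicate block by the number of the title or of the description gave 1 in DIO-MS hearts each, although the numbers did not pair the hearts: deviations of same-numbered hearts had a median correlation of -0.005 and -0.027, with 34 and 32 of 106 pairs over 0.1. Between the smokes at regular weight 2 were called with the lowest 50% of genes left out and 0 with only the groups compared, and in obese mice 1 with array weights. Averaging all probe sets of a gene gave 1 in DIO-MS hearts, 0 between the smokes at regular weight and 0 in the sidestream interaction, and turned the sign of 17 of 110 values of members, of which 12 passed neither before nor after. Of the other 5, Hsp90b1 became -0.33 in RW-SS hearts (adjusted p = 3.19e-05), 0.15 for the diet under sidestream smoke (0.0334) and -0.11 between the smokes (0.241), Pdia4 0.0183 in RW-MS hearts (0.856) and Pdia6 -0.0693 in the sidestream interaction (0.387). Dim second probe sets enter that mean for Pdia4 and Pdia6. Only the groups compared also ended the call of Hspa5 in RW-SS hearts (0.0632) and passed Manf in DIO-MS hearts (0.0401), as did array weights (0.0244). Counts over all genes moved by over 1.5 times in RW-MS hearts, with 380 without those 3 arrays and 402 with only the groups compared, against 638. They did so with array weights for DIO-MS hearts (714 against 423), the diet under mainstream smoke (1565 against 985, and 456 with only the groups compared), the smokes in obese mice (1964 against 237) and the mainstream interaction (48 against 21, and 34 with the atrial mean). Between the smokes at regular weight only the groups compared gave 4 against 541. Between the smokes in obese mice the further quantile normalization gave 100, the description number 90 and the fibroblast mean 125. The further normalization gave 1587 against 2641 in the sidestream interaction. With all 15295 probe sets above the filter tested, 3943 passed in RW-SS and 4579 in DIO-SS hearts, 4955 for the diet under sidestream smoke, 1156 and 436 between the smokes in RW and DIO mice, and 4177 in the sidestream interaction, against 2288, 2960, 3030, 541, 237 and 2641 of 9295 genes. As shares these are 25.8%, 29.9%, 32.4%, 7.56%, 2.85% and 27.3% of probe sets against 24.6%, 31.8%, 32.6%, 5.82%, 2.55% and 28.4% of genes. The causes of these shifts were not tested.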
